A study of Homo sapiens with 17 samples.

Results

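The treatment by time interaction of AZD5153 is the difference, gene by gene, between the effect of the compound after 48 hours and its effect after 24 hours. It was computed as (AZD5153 minus DMSO at 48 h) minus (AZD5153 minus DMSO at 24 h) on log2(normalized count + 1), and it is called here the difference between times. Its members are the 15599 of 60664 genes in the table whose normalized counts averaged 10 or more across 12 libraries, and the 12 RNA-Seq libraries are 12 of the 17 samples of the series. No measured change was used to choose them. SF8628 is an established line of diffuse midline glioma (DMG) cells, which carries the K27M change in histone H3.3. SF8628 cells were treated with the vehicle DMSO or with 1 µM AZD5153 for 24 or 48 h, which gave the groups DMSO_24h, AZD5153_24h, DMSO_48h and AZD5153_48h with 3 libraries each. All groups were thus 1 cell line in culture, and each time had its own DMSO group. Nothing in the labels says whether the libraries of a group came from separate cultures, so the p-values measure the spread between these libraries.

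BET proteins carry paired bromodomains that bind acetylated lysines on histone tails, and at promoters and enhancers they help to recruit P-TEFb, the kinase complex that releases paused RNA polymerase II. AZD5153 is a bivalent inhibitor of BET bromodomains. Genes of the immediate early response, of the cell cycle and of cytokine signalling are among those known to respond to BET inhibition. A difference between times can arise while the treated cells, the vehicle cells or both move from 24 to 48 h, so each gene was also read within each arm, as 48 h minus 24 h in DMSO and as 48 h minus 24 h in AZD5153. A positive difference between times means that the effect of AZD5153 was higher (less negative or more positive) at 48 h than at 24 h, and a negative one that it was lower.

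Genes took 15759148 to 27335220 reads in a library. Replicate 1 of DMSO_24h stood apart from replicates 2 and 3 of its group: the chi-square per degree of freedom between its reads and theirs was 15.2 and 22.9, against 2.09 to 4.82 for the other 10 pairs of replicates. Its levels also followed the GC content of the transcripts, since relative to all libraries the median log2 level of genes in the highest of 5 GC bins minus that in the lowest was -0.62, while in the other 11 libraries it lay between -0.11 and 0.18. This library enters every difference between times, and the main counts are therefore given with and without it, as are the named genes whose difference between times it moved by more than 1.5 times or whose call was lost without it. Across genes, the median difference between times went from 0.12 in the lowest GC bin to -0.21 in the highest, and from 0.06 to -0.07 without that library. Of the glioma and glial markers, OLIG1 and OLIG2 were at 0 in all 12 libraries, and SOX10, PDGFRA, POU3F2 and NCAN averaged at most 2.66 normalized counts, while SOX2, SOX9, NES, VIM, CD44 and CSPG4 were detected in every group (means of 191, 984, 1336, 18049, 6404 and 1581 normalized counts). Of 20 markers of other cell types, 8 averaged at least 10 normalized counts, AIF1, CD3E, CDH5, KRT5, MOG and HBB were at 0, and the summed level went from 2308 to 2444 at 24 h and from 2767 to 2931 at 48 h with both treatments overlapping at each time. Their part in the results was not tested. In bulk RNA, fewer cells in a state and less RNA per cell cannot be told apart.

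**Figure D1:**
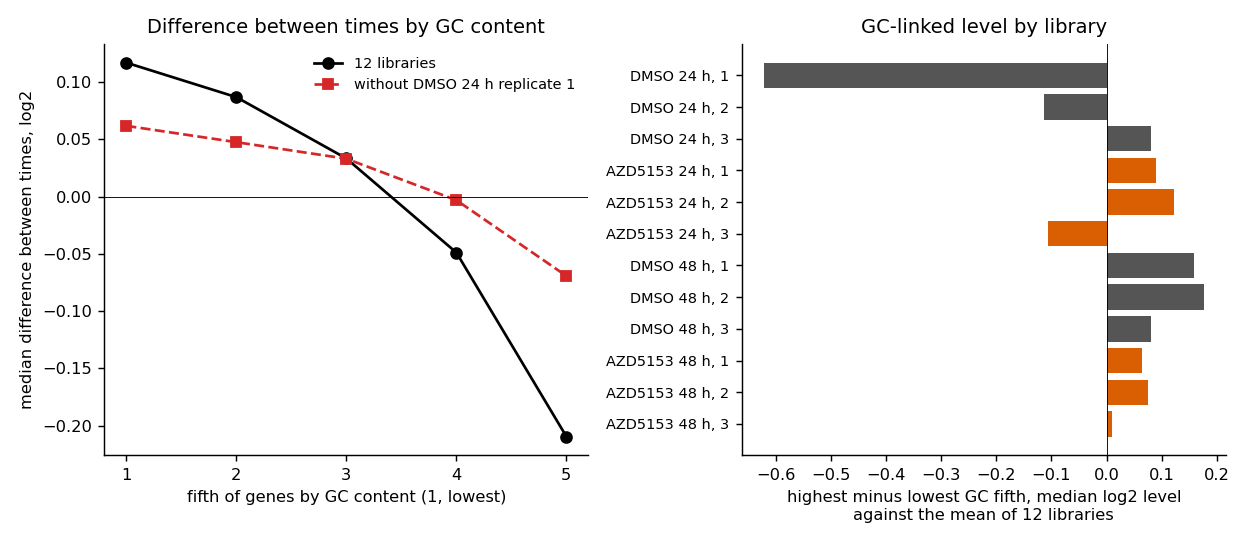
Left, the median difference between times (log2, vertical axis) for 5 equal bins of the genes tested by GC content, with all 12 libraries (circles) and without replicate 1 of DMSO at 24 h (squares). Right, the median log2 level of the highest minus the lowest GC bin in each library, relative to the mean of 12 libraries; replicate 1 of DMSO at 24 h lies at -0.62 and the others between -0.11 and 0.18.

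The effect of AZD5153 differed between 24 and 48 h in 3829 genes, 24.5% of those tested (limma, Benjamini-Hochberg adjusted p under 0.05 over 15599 genes, as for every adjusted p given here). It was higher at 48 h in 2254 genes (14.4%) and lower in 1575 (10.1%). The balance of directions moved with the scaling between libraries: 58.9% of the called differences were higher with the deposited scaling, 48.2% with libraries scaled to equal totals and 70.7% with libraries scaled to 7 stably expressed genes. With the GC trend of each library removed, 3495 genes were higher and 1617 lower (68.4% higher). The median difference over all genes tested was 0.0016, and the smallest difference called was 0.16 in size. Differences of at least 1 on the log2 scale were fewer and went mostly the other way, with 196 higher and 558 lower. Without replicate 1 of DMSO_24h, 2724 genes were higher and 1803 lower, and 95.4% of the 3829 genes were called again, each in the same direction. For comparison, the effect at 24 h alone passed the threshold in 68.5% of genes (33.9% higher, 34.6% lower) and the effect at 48 h in 67% (33.1% higher, 33.9% lower).

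The called genes were sorted by what the effect did. In 101 genes (0.647% of those tested) an increase at 24 h became a decrease at 48 h, and in 152 (0.974%) a decrease became an increase, with both times past the threshold in each. An increase at 24 h faded in 621 genes (3.98%), of which 312 were still past the threshold at 48 h and 309 were not. A decrease at 24 h faded in 1140 genes (7.31%), of which 713 were still past the threshold at 48 h and 427 were not. An increase grew in 957 genes (6.14%), 532 of them past the threshold at both times and 425 at 48 h alone, and a decrease grew in 841 (5.39%), 517 at both times and 324 at 48 h alone. At a time that was not called the sign of the effect was not used, so genes called at 1 time alone may have had the other sign at the other time. The remaining 17 genes fell in no class. Classes whose effect fell toward 0 (1761 genes) and classes whose effect moved away from it (1798 genes) were thus of like size, and full reversals (253 genes) were the rarest. With replicate 1 of DMSO_24h left out, 2015 genes faded, 2189 grew and 294 reversed. Since a class is a rule on the same fit, its counts and medians are a description. The median effect of a decrease that faded went from -0.94 at 24 h to -0.35 at 48 h, and that of an increase that faded from 1.02 to 0.29. The median of a decrease that grew went from -0.53 to -1.43, and that of an increase that grew from 0.21 to 0.63. With the GC trend of each library removed, an alternative added after the data were seen, the class of increases that grew held 1909 genes and that of decreases that became increases 253.

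**Figure D2:**
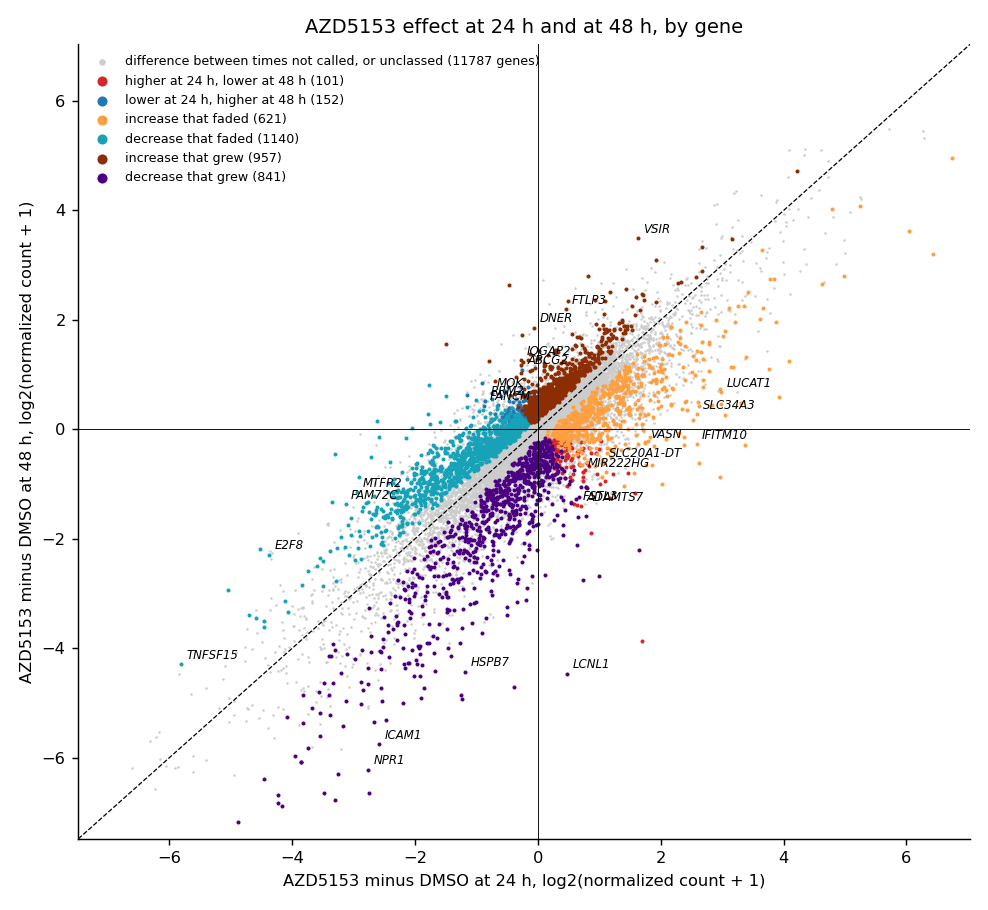
Each point is a gene, with its AZD5153 effect at 24 h on the horizontal axis and at 48 h on the vertical axis, both as log2(normalized count + 1) of AZD5153 minus DMSO. Colours mark the 6 classes, grey marks genes with no called difference or no class, the dashed line marks equal effects, and the 24 genes named by class are labelled; the 101 and 152 reversed genes lie in the lower right and upper left quadrants near the origin.

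Which arm moved differed from gene to gene. Change from 24 to 48 h passed the threshold in DMSO in 5566 genes (35.7%, with 16.4% higher and 19.3% lower at 48 h) and in AZD5153 in 4627 genes (29.7%, with 15.8% higher and 13.8% lower). With replicate 1 of DMSO_24h left out the order turned, with 5655 genes in DMSO and 6100 in AZD5153. Among the 3829 genes whose effect differed between times, only the DMSO arm passed in 1579 (41.2%), only the AZD5153 arm in 1125 (29.4%), both in opposite directions in 590 (15.4%), both in the same direction in 297 (7.76%) and neither in 238 (6.22%). The DMSO arm moved farther in 2172 of them (56.7%) and the AZD5153 arm in 1657. The order of the arms among these genes rested on the same library: without it only the DMSO arm passed in 1476 genes and only the AZD5153 arm in 1511, although the DMSO arm still moved farther in 52.4%. Among the 754 genes with a difference of at least 1 the arms were level, with 237 genes in DMSO alone and 233 in AZD5153 alone. By the class rule the arms come closer where an effect fades and part where it grows, so only the share of each arm is described here. In genes whose decrease faded the median change was -0.34 in DMSO and 0.24 in AZD5153, and in genes whose decrease grew it was 0.40 and -0.45. In genes whose increase faded, the DMSO arm moved up by a median of 0.44 and the AZD5153 arm moved by -0.25.

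**Figure D3:**
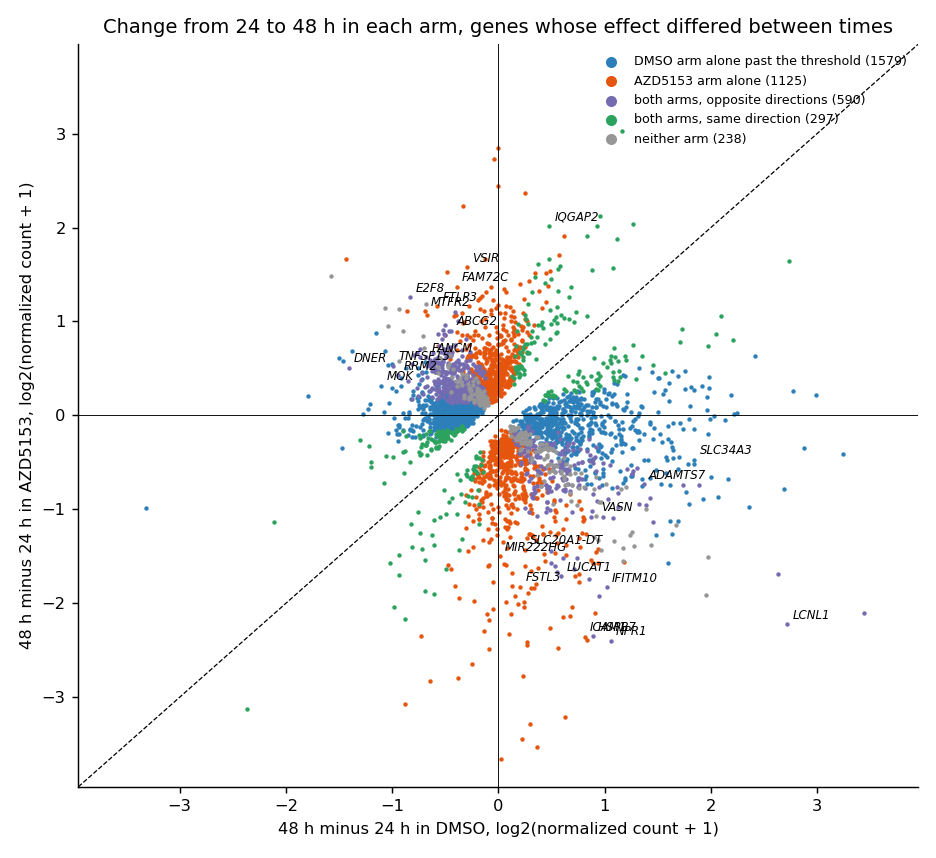
Each point is 1 of the 3829 genes whose effect differed between times, with its change from 24 to 48 h in DMSO on the horizontal axis and in AZD5153 on the vertical axis, both in log2(normalized count + 1). Colours show which arm passed the threshold (DMSO alone in 1579 genes, AZD5153 alone in 1125), and distance from the dashed line is the difference between times.

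The genes named first are those of at least 100 normalized counts on average with the largest differences in each class, with the AZD5153 and DMSO libraries of a time not overlapping wherever that time's effect was called. Further on, members of gene lists with the largest called differences are named whatever their level. Values are normalized counts in replicates 1, 2 and 3, with DMSO before AZD5153 at each time, and each difference is on the log2 scale with its standard error (3 libraries per group).

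ADAMTS7, a secreted metalloprotease (chr15:78759206-78811464 on GRCh38 in the GENCODE annotation), was at 273, 519 and 514 in DMSO and 699.9, 681 and 659 in AZD5153 at 24 h, and at 1122, 1106 and 1013 and 424, 419 and 385 at 48 h. AZD5153 was above DMSO at 24 h and below it at 48 h with no overlap at either time, while DMSO climbed and AZD5153 declined. The effect went from 0.70 to -1.40, a difference of -2.10 ± 0.24 (limma adjusted p = 2.25e-05). ADAMTS7 overlaps MORF4L1 on the other strand, which averaged 5208 normalized counts and had a difference of 0.03, and the counting is not stated to have used the strand. FSTL3, a secreted protein that binds activin (chr19:676392-683392), was at 170.2, 267 and 326 in DMSO and 393, 403 and 359 in AZD5153 at 24 h, and at 272, 285 and 293 and 91.2, 116 and 119 at 48 h. Here the change in vehicle cells did not pass (0.20, limma adjusted p = 0.41) and the treated cells fell by 1.82 on the log2 scale, for a difference of -2.03 ± 0.26 (limma adjusted p = 4.77e-05). The non-coding transcripts SLC20A1-DT, which lies beside a phosphate transporter gene, and MIR222HG, the host of the microRNAs miR-221 and miR-222, took the same course. MIR222HG (chrX:45745210-45770274) was at 225, 235 and 233 in DMSO against 397, 389 and 365 in AZD5153 at 24 h and at 209, 257 and 235 against 140.4, 140.2 and 125 at 48 h. Its level in DMSO moved by 0.01 and in AZD5153 by -1.50, and its difference was -1.51 ± 0.15 (limma adjusted p = 5.07e-06). SLC20A1-DT went from 1.07 to -0.61 (difference -1.68 ± 0.23, limma adjusted p = 1.02e-04), again with the AZD5153 arm alone past the threshold. Without replicate 1 of DMSO_24h the differences of the 4 genes lay between -1.79 and -1.49, and all 4 remained called. The increase at 24 h was then smaller in ADAMTS7 (0.39) and FSTL3 (0.38).

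The reverse course, lower at 24 h and higher at 48 h, was taken by RRM2, MOK, ABCG2 and FANCM. RRM2, the small subunit of ribonucleotide reductase that supplies deoxynucleotides for DNA synthesis (chr2:10120698-10211725), was at 5934, 5521 and 5453 in DMSO and 3279.5, 2952 and 3143 in AZD5153 at 24 h. At 48 h it was at 2843, 2929 and 2992 in DMSO and 4194, 4161 and 4237 in AZD5153, so the treated libraries lay below every vehicle library at 24 h and above every one at 48 h. The 24 to 48 h change was -0.95 in DMSO and 0.43 in AZD5153, and the difference between times was 1.37 ± 0.072 (limma adjusted p = 1.25e-08). ABCG2, a drug efflux pump of the ABC family (chr4:88090150-88231628), was at 257, 286 and 262 in DMSO and 205, 225 and 245 in AZD5153 at 24 h, and at 189, 199 and 201 and 420.4, 473 and 375 at 48 h. Its small decrease (-0.26, not past the threshold with a pseudocount of 10) became an increase (1.09), with a difference of 1.35 ± 0.15 (limma adjusted p = 1.85e-05) made mostly in the treated arm (0.90). FANCM, a DNA translocase of the Fanconi anemia pathway, went from -0.87 to 0.43 as DMSO fell and AZD5153 rose (difference 1.30 ± 0.20, limma adjusted p = 2.83e-04). MOK, a protein kinase, went from -0.75 to 0.67 (difference 1.42 ± 0.17, limma adjusted p = 3.52e-05) with only the DMSO arm past the threshold (-1.10), and it overlaps WDR20 on the other strand, whose difference was 0.18. In these genes the vehicle level fell from 24 to 48 h in every case, by 0.45 to 1.10. Without replicate 1 of DMSO_24h their differences lay between 1.17 and 1.42.

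Among increases that faded, LUCAT1, a stress-responsive long non-coding RNA (chr5:91054834-91314547), was at 263, 288 and 276 in DMSO and 2181, 2207 and 2184 in AZD5153 at 24 h, and at 449, 371 and 429 and 714, 659.5 and 632 at 48 h. The increase of 2.99 shrank to 0.69, with DMSO up by 0.59 and AZD5153 at -1.71 (difference -2.30 ± 0.11, limma adjusted p = 7.66e-09). It overlaps ADGRV1 on the other strand, which had a difference of -0.41. IFITM10, of the interferon-induced transmembrane family (chr11:1732406-1750595), was at 49.6, 161 and 215 in DMSO and 823, 801 and 575 in AZD5153 at 24 h, and at 245, 218 and 272 and 224, 187 and 199 at 48 h. Its increase of 2.58 had no counterpart at 48 h (-0.27, limma adjusted p = 0.52), and replicate 1 of DMSO_24h was the lowest library. A gene on the same strand overlaps it (ENSG00000250644, difference -2.35). The difference was -2.85 ± 0.50 (limma adjusted p = 7.37e-04) and -2.22 without that library. SLC34A3, a sodium-phosphate cotransporter, was at 18, 69 and 98.1 in DMSO and 309.7, 354 and 264 in AZD5153 at 24 h, and at 187, 176 and 182 and 219, 247 and 201 at 48 h. It faded mainly through the DMSO arm (1.85), with a difference of -2.32 ± 0.56 (limma adjusted p = 0.0068), or -1.61 without replicate 1 of DMSO_24h, when the change in DMSO was 1.14 and the change in AZD5153 (-0.47) passed as well. VASN, a transmembrane protein that binds TGF-beta, rested most on that library, which was at 29.3 against 174 and 176 in the other DMSO_24h libraries. Its difference of -1.99 ± 0.64 (limma adjusted p = 0.033) was -1.15 without it, and the call was lost under 10 of the 24 alternatives, among them when replicate 1 or 2 of AZD5153_24h or any 48 h library was left out.

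Among decreases that faded, E2F8, an atypical E2F factor that represses transcription in the cell cycle (chr11:19224063-19241620), was at 478, 462 and 446 in DMSO and 17.4, 21.5 and 25.7 in AZD5153 at 24 h. At 48 h it was at 249.5, 254 and 276 in DMSO and 60.2, 53.2 and 44.5 in AZD5153, still below every vehicle library, with a treated mean of 52.6 against 21.5 at 24 h. Its effect went from -4.38 to -2.29 while DMSO moved by -0.83 and AZD5153 by 1.26 (difference 2.08 ± 0.23, limma adjusted p = 1.36e-05). MTFR2, a regulator of mitochondrial fission, went from -2.94 to -1.14 (difference 1.80 ± 0.37, limma adjusted p = 0.0024), and TNFSF15, a cytokine of the TNF superfamily, from -5.80 to -4.28 (difference 1.52 ± 0.26, limma adjusted p = 5.93e-04). TNFSF15 was at 609.8, 594 and 531 in DMSO and 9.39, 10.2 and 8.57 in AZD5153 at 24 h, and at 298, 259.8 and 315 and 10.9, 15.2 and 16.3 at 48 h, so most of its recovery on the log2 scale was a fall in the vehicle cells (-0.99). Without replicate 1 of DMSO_24h the differences of E2F8, MTFR2 and TNFSF15 were 2.06, 1.80 and 1.48, and the change of TNFSF15 in AZD5153 (0.53) no longer passed. FAM72C had a difference of 1.76 ± 0.30 (limma adjusted p = 5.59e-04) but belongs to a family of near-identical copies among which the counting could split reads. FAM72A, FAM72D and FAM72B had differences of 1.14, 0.99 and 0.60, and that of FAM72B was not past the threshold (limma adjusted p = 0.081).

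Among increases that grew, VSIR, which encodes the immune checkpoint protein VISTA (chr10:71747556-71773520), was at 28.2, 70.5 and 89.2 in DMSO and 217, 159 and 158 in AZD5153 at 24 h, and at 54.9, 48.8 and 35.6 and 564, 503 and 516 at 48 h. The increase went from 1.63 to 3.50 as the treated arm rose (1.58), with a difference of 1.87 ± 0.43 (limma adjusted p = 0.0054). Without replicate 1 of DMSO_24h the difference was 2.36 and the fall in DMSO (-0.78) passed too. DNER, a transmembrane Notch ligand of neurons (chr2:229357629-229714555), was at 229, 268 and 291 in DMSO and 240, 243 and 271 in AZD5153 at 24 h, and at 113, 78.9 and 105 and 323, 369 and 382 at 48 h. The groups overlapped at 24 h and were apart at 48 h, as vehicle cells fell (-1.41) and treated cells rose (0.51). Its difference was 1.92 ± 0.20 (limma adjusted p = 7.41e-06). IQGAP2, a scaffold protein of the actin cytoskeleton, was at 85.7, 69 and 66.9 in DMSO and 65.7, 62.5 and 53.9 in AZD5153 at 24 h, and at 112, 113 and 85.3 and 254, 249 and 240.4 at 48 h. Its effect was -0.28 at 24 h, not past the threshold (limma adjusted p = 0.14), and 1.26 at 48 h. Both arms rose, by 0.48 in DMSO and 2.02 in AZD5153 (difference 1.54 ± 0.23, limma adjusted p = 1.82e-04), and F2RL2, which lies on the other strand within the same interval and averaged 1128 normalized counts, had a difference of -0.26. FTLP3 had a difference of 1.74 ± 0.49 (limma adjusted p = 0.017), or 1.18 without replicate 1 of DMSO_24h. It is a processed pseudogene of FTL, the ferritin light chain, which averaged 190180 normalized counts and had a difference of 0.18 (limma adjusted p = 0.2), so reads of the parent gene cannot be told apart from its own here.

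Of the genes named by class, the decreases that grew had the largest differences. LCNL1, a lipocalin-like gene (chr9:136981904-136986410), was at 42.8, 64.1 and 39.2 in DMSO and 67, 72.7 and 61.2 in AZD5153 at 24 h, and at 301, 348 and 309.9 and 16.4, 17.4 and 8.56 at 48 h. It had no called effect at 24 h (0.48, limma adjusted p = 0.1) and a decrease of -4.46 at 48 h. Vehicle cells rose (2.72) as treated cells fell (-2.22), for a difference of -4.94 ± 0.36 (limma adjusted p = 2.90e-07). NPR1, the receptor of atrial natriuretic peptide (chr1:153678688-153693992), was at 166, 162 and 179 in DMSO and 26.8, 18.4 and 28.2 in AZD5153 at 24 h, and at 368, 322 and 369 and 1.82, 7.61 and 3.42 at 48 h (difference -3.46 ± 0.44, limma adjusted p = 5.45e-05). Its treated level at 48 h was a few reads per library, so the size of its effect there (-6.22) depends on the pseudocount, and the difference was -2.30 with a pseudocount of 10. HSPB7, a small heat shock protein, was at 292, 352 and 358 in DMSO and 168, 148 and 124 in AZD5153 at 24 h, and at 591, 631 and 626 and 29.2, 31.5 and 23.1 at 48 h, with a difference of -3.24 ± 0.21 (limma adjusted p = 9.76e-08). ICAM1, an adhesion molecule that leukocyte integrins bind and a target of NF-kB (chr19:10271093-10286615), was at 162, 184 and 203 in DMSO and 38.9, 33.8 and 19.6 in AZD5153 at 24 h. At 48 h it was at 339.6, 309 and 314 in DMSO and 2.74, 9.78 and 4.28 in AZD5153, with a difference of -3.17 ± 0.46 (limma adjusted p = 1.59e-04) and the treated arm alone past the threshold (-2.36). With a pseudocount of 10 the difference of ICAM1 was -2.16 and its rise in DMSO (0.78) passed too. In all 4 genes the treated libraries at 48 h were the lowest of the 12. Without replicate 1 of DMSO_24h the 4 differences lay between -4.87 and -3.09.

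**Figure D4:**
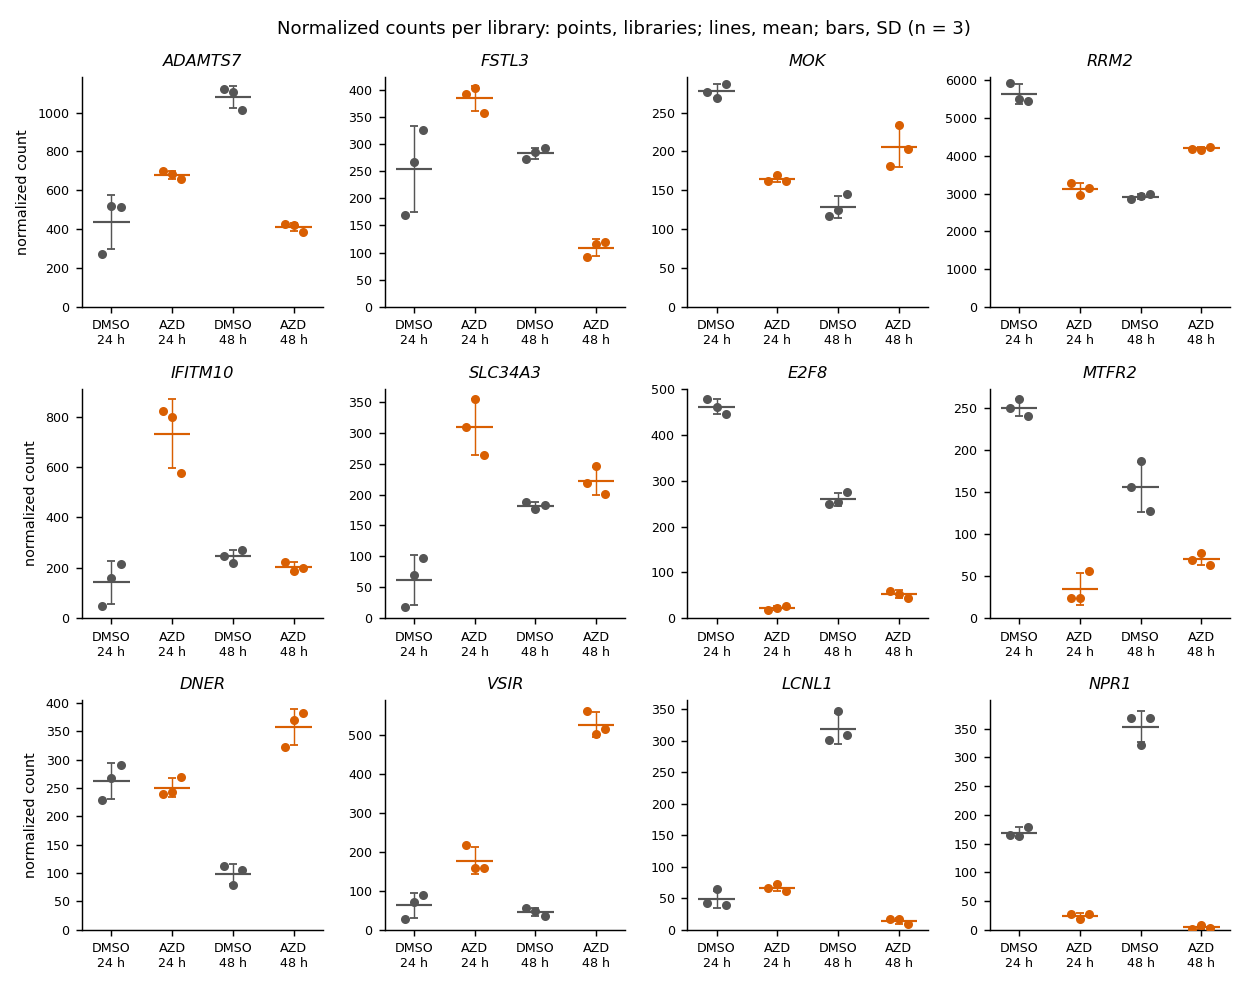
Normalized counts (vertical axes, from 0) of 12 genes in the 4 groups: 2 genes for each class in the order higher to lower (ADAMTS7, FSTL3), lower to higher (MOK, RRM2), increase faded (IFITM10, SLC34A3), decrease faded (E2F8, MTFR2), increase grew (DNER, VSIR) and decrease grew (LCNL1, NPR1). Points are libraries, horizontal lines means and bars SD (n = 3), with DMSO in grey and AZD5153 in orange; RRM2 lies lower with AZD5153 at 24 h and higher at 48 h.

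Of the gene lists described here, those of the cell cycle had the highest shares of members past the threshold in 1 direction. Progression through S phase and mitosis depends on waves of transcription, the former driven by E2F factors and the latter by complexes that bind CHR and CCAAT elements. Of 43 S phase genes tested, the effect was higher at 48 h in 38 and lower in 0, and the median effect went from -1.54 to -0.77, with a median difference of 0.75. Of 53 G2/M genes tested, it was higher in 46 and lower in 0, and the median effect went from -1.83 to -0.997, with a median difference of 0.76. These shares (88.4% and 86.8%) stand against 14.4% of all genes tested, whose median difference was 0.0016. The decrease faded without reversing in 36 and 45 of these genes. Both arms took part: the DMSO level fell from 24 to 48 h in 42 S phase and 44 G2/M genes (97.7% and 83%, against 19.3% of all genes), and the AZD5153 level rose in 24 and 37 (55.8% and 69.8%, against 15.8%). The medians differed between arms, at -0.52 in DMSO and 0.23 in AZD5153 for S phase genes and at -0.41 and 0.37 for G2/M genes. The median difference stayed between 0.65 and 0.83 for the lists over the 3 other scalings, the fit without replicate 1 of DMSO_24h and the fit with the GC trend removed.

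CDK1, the kinase that drives entry into mitosis (chr10:60778331-60794852), was at 2589, 2493 and 2305 in DMSO and 432, 414 and 525 in AZD5153 at 24 h, and at 1702, 1753 and 1765 and 895, 844 and 916 at 48 h. The gap to vehicle narrowed from both sides, with DMSO at -0.50 and AZD5153 at 0.96, and the effect went from -2.43 to -0.98 (difference 1.46 ± 0.11, limma adjusted p = 6.36e-07). TOP2A, the topoisomerase that untangles sister chromatids, went from -2.77 to -1.33 (difference 1.43 ± 0.091, limma adjusted p = 8.97e-08), TTK, a kinase of the spindle checkpoint, from -2.35 to -0.97, and CENPE, a kinetochore motor, from -1.71 to -0.42. UHRF1, which recruits the maintenance DNA methyltransferase to replicating DNA, was at 3777, 4224 and 4493 in DMSO and 1173, 1188 and 1096 in AZD5153 at 24 h, and at 2687, 2644 and 2661 and 1068, 1051 and 1061 at 48 h. Its difference of 0.52 ± 0.087 (limma adjusted p = 5.07e-04) came from the DMSO arm (-0.64), since the treated level did not pass the threshold (-0.12, limma adjusted p = 0.16). CDCA7 behaved likewise, with DMSO at -0.58, AZD5153 at -0.13 (limma adjusted p = 0.19) and a difference of 0.44 ± 0.10 (limma adjusted p = 0.0063).

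Promoter sequences are shown for 4 genes, CDK1, UHRF1 and RRM2 because members of the cell cycle lists moved together, and ICAM1 because its treated level at 48 h was a few reads per library. Each line gives the 250 bases before the RefSeq start site on GRCh38.p14, 5′ to 3′ on the plus strand, with the letters of the motifs searched in capitals. For CDK1 (chr10:60778081-60778330) the capitals mark CHR (TTTGAA) and the CCAAT box (CCAAT), for UHRF1 (chr19:4909251-4909500) the E2F motif (GCGGGAA or its complement) and the CCAAT box, for RRM2 (chr2:10122489-10122738) the CCAAT box, and for ICAM1 (chr19:10270870-10271119) a kappa B motif (GGAANTTCC) and the TATA box (TATAAA).
CDK1: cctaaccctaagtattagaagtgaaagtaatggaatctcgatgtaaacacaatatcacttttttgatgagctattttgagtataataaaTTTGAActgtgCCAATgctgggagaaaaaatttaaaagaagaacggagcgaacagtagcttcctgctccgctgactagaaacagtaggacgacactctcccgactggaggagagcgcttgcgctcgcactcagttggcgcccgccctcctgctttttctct
UHRF1: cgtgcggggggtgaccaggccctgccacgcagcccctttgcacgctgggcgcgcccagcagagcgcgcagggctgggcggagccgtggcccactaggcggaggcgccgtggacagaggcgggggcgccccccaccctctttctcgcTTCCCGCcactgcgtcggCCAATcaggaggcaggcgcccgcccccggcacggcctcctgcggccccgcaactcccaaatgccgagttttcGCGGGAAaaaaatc
RRM2: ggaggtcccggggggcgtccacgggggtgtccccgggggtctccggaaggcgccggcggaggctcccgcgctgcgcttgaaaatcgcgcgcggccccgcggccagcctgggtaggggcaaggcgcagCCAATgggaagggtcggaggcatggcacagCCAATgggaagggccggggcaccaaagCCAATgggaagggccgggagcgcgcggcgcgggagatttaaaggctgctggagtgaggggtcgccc
ICAM1: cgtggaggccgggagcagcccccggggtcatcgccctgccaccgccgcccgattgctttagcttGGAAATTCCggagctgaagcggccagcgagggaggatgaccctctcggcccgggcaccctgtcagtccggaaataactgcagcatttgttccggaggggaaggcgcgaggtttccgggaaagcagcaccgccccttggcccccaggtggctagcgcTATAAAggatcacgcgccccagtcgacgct

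In CDK1 the CHR lay at -161 to -156 and the CCAAT box at -150 to -146 relative to the start, and RRM2 held 3 CCAAT boxes, the nearest at -66 to -62. UHRF1 held E2F letters at -104 to -98 and at -14 to -8. The motifs were searched on both strands of the 250 bases, and a match is a description of letters, not a bound site. Of 44 G2/M genes with a promoter in the RefSeq table, 54.5% held TTTGAA, against 8.43% of 11180 genes tested and 13.6% of all 27305 promoters of that length in the table. CCAAT was held by 68.2% of G2/M and 68.8% of S phase promoters, against 34.9% of genes tested and 33% of all promoters. GCGGGAA was held by 43.8% of 32 S phase promoters, against 8.74% of genes tested and 5.59% of all promoters. The classes as a whole differed less. TTTGAA was held by 12.9% of the promoters of decreases that faded and 8.57% of those of decreases that grew, and GCGGGAA by 13% and 6.22%. The kappa B letters of ICAM1 lay at -186 to -178 and its TATA box at -30 to -25. GGAANTTCC was held by 0.831% of all promoters and 0.903% of those of genes tested, and TATAAA by 11.1% and 5.49%.

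Genes of homologous recombination and the Fanconi anemia pathway, which repair double-strand breaks and cross-links on a DNA template, moved in the direction of the S phase genes. Of 53 genes tested, the effect was higher at 48 h in 30 (56.6%, against 14.4% of all genes) and lower in 1 (1.89%, against 10.1%), and the median effect went from -1.21 to -0.55 (median difference 0.56). This list shares members with the S phase list, EXO1 among them, so the counts of these lists are not independent of each other. EXO1, a nuclease that resects DNA ends (chr1:241847967-241895148), was at 2106, 1932 and 1986 in DMSO and 405, 413 and 491 in AZD5153 at 24 h, and at 1167, 1159.6 and 1208 and 672, 663 and 736 at 48 h. The decrease shrank from -2.20 to -0.77, with DMSO at -0.77 and AZD5153 at 0.67 (difference 1.43 ± 0.11, limma adjusted p = 5.20e-07). BRCA1, which organises recombination at breaks, was at 3828, 3356 and 3201 in DMSO and 664, 663 and 716 in AZD5153 at 24 h, and at 2462, 2372 and 2319 and 1042, 1005 and 981 at 48 h. Its decrease of -2.34 became one of -1.24 (difference 1.10 ± 0.095, limma adjusted p = 1.28e-06), and it overlaps 3 other detected genes, so part of its reads may be shared. RMI2, a subunit of the complex that dissolves recombination intermediates, faded from -3.55 to -2.36 through the AZD5153 arm alone (1.40), while SOCS1, which overlaps it on the other strand, had a difference of -1.50. The DNA damage kinase ATM was the 1 member lower at 48 h, with a difference of -0.24 (limma adjusted p = 0.04). ATM was named after its value was seen, and with libraries scaled to 7 stable genes 0 members were lower.

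Of 22 cyclins, CDKs and inhibitors of G1, 11 were higher and 2 lower at 48 h (50% and 9.09%, against 14.4% and 10.1% of all genes), with a median effect from -0.67 to -0.49. E2F2, an activating E2F, was at 542, 614 and 643 in DMSO and 22.8, 20.5 and 29.4 in AZD5153 at 24 h, and at 461, 543 and 465 and 32.8, 48.9 and 53 at 48 h, a decrease that faded (difference 1.14 ± 0.26, limma adjusted p = 0.0046). CCNE1, the cyclin that starts S phase, reversed from -0.36 to 0.56 (difference 0.92 ± 0.13, limma adjusted p = 1.30e-04). RBL1, the pocket protein p107, went from -1.81 to -0.77. CDKN1A, the CDK inhibitor p21, went the other way: it was at 209.7, 289.7 and 266 in DMSO and 7095, 7193 and 6638 in AZD5153 at 24 h, and at 344, 289.9 and 271 and 5059, 4962 and 4780.4 at 48 h. The increase remained large but shrank from 4.78 to 4.03 (difference -0.75 ± 0.15, limma adjusted p = 0.0017). For CDK6, a kinase of G1, the effect was -1.04 at 24 h and -0.98 at 48 h, and the difference of 0.06 (95% interval from -0.18 to 0.30) did not pass. Without replicate 1 of DMSO_24h the difference of CDK6 was -0.03. CDKN2A, which encodes the inhibitor p16, had a difference of -0.47 (95% interval from -0.96 to 0.02) that did not pass either (limma adjusted p = 0.15).

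Immediate early genes and AP-1 subunits are the fastest transcriptional response to growth factors and stress. Of 26 tested, the effect was lower at 48 h in 14 and higher in 2 (53.8% and 7.69%, against 10.1% and 14.4% of all genes), and the median effect went from 0.90 at 24 h to 0.12 at 48 h. Without replicate 1 of DMSO_24h 14 were lower and 5 higher. EGR1, a zinc finger factor of that response (chr5:138465479-138469303), was at 892, 1130.3 and 1246 in DMSO and 4079, 4237 and 4294 in AZD5153 at 24 h, and at 555, 588 and 618 and 1021, 932 and 866 at 48 h. Both arms declined, AZD5153 more (-2.16) than DMSO (-0.88), and the increase shrank from 1.96 to 0.68 (difference -1.28 ± 0.14, limma adjusted p = 1.18e-05). IER2 was at 285, 356 and 438 in DMSO and 755, 781 and 595 in AZD5153 at 24 h, and at 393, 483 and 452 and 360.2, 354 and 317 at 48 h, which turned an increase of 0.99 into a decrease of -0.36 (difference -1.35 ± 0.20, limma adjusted p = 1.82e-04). JUNB, an AP-1 subunit, lost its increase of 1.15 (0.03 at 48 h, limma adjusted p = 0.83), and HOOK2, which overlaps it on the other strand, had a difference of -0.73. From 24 to 48 h, 12 members fell and 2 rose in AZD5153 (46.2% and 7.69%, against 13.8% and 15.8% of all genes, with a median of -0.47). In DMSO 7 fell and 9 rose (26.9% and 34.6%, against 19.3% and 16.4% of all genes, with a median of -0.01). The change of JUNB in DMSO (0.34) was 0.22 and not past the threshold without replicate 1 of DMSO_24h.

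Stress genes were more often lower than higher at 48 h. Of 30 genes of the unfolded protein and ATF4 stress responses, 11 were lower (36.7%, against 10.1% of all genes) and 3 higher (10%, against 14.4%) at 48 h, and the median effect went from 0.11 to -0.22. The median difference of -0.28 was -0.13 without replicate 1 of DMSO_24h and -0.09 with the GC trend removed, while the count of lower members stayed at 11 in both. ATF3 was at 29.3, 51.2 and 49.9 in DMSO and 134, 158 and 157 in AZD5153 at 24 h, and at 100.0, 117 and 132 and 174, 131 and 119.8 at 48 h, so the fade of -1.52 (limma adjusted p = 0.0018) was a rise in the vehicle cells (1.43). PPP1R15A, which reverses the phosphorylation of eIF2, reversed from 0.84 to -0.34 with treated cells at -1.33, and without replicate 1 of DMSO_24h the change in DMSO (-0.28) passed as well. CEBPB, a basic leucine zipper factor, reversed from 0.47 to -1.03, although its increase at 24 h was 0.19 without replicate 1 of DMSO_24h, and SLC7A11, the cystine transporter, went from -0.91 to -2.05. Of 26 p53 targets, 5 were lower (19.2%, against 10.1% of all genes) and 0 higher (0%, against 14.4%) at 48 h, with GADD45A at 1.55 and then 0.83. Their median difference of -0.13 was -0.056 with the GC trend removed and -0.061 with libraries scaled to 7 stable genes. The median of all genes was 0.063 and 0.073 under these settings. The calls of PHLDA3 and SESN1 on that list were each lost under 8 of the 24 alternatives, and the difference of PHLDA3 (-1.01) was -0.66 without replicate 1 of DMSO_24h.

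Interferon-stimulated genes, which cells switch on through STAT and IRF factors, were lower with AZD5153 in 29 of 35 at 24 h and in 31 at 48 h, where 34.6% and 33.9% of all genes were lower. In 4 of the 35 the AZD5153 libraries averaged under 10 normalized counts, so that they were tested through their DMSO level alone, and of the other 31, 25 were lower at 24 h and 27 at 48 h (80.6% and 87.1%). The effect went down from 24 to 48 h in 13 of the 35 (37.1%, against 10.1% of all genes), 11 of them among the 31, and it went up in 1 (2.86%, against 14.4%), and the median effect went from -1.67 to -1.87. OASL, an antiviral sensor protein, was at 361, 367 and 423 in DMSO and 46.9, 47.1 and 36.7 in AZD5153 at 24 h, and at 895, 1026 and 849.8 and 33.7, 22.8 and 29.9 at 48 h. The vehicle level rose (1.26) and the treated level fell (-0.59), so the decrease grew from -3.11 to -4.97 (difference -1.85 ± 0.23, limma adjusted p = 3.39e-05). IFIT3, which binds viral RNA with its family, was at 561, 547 and 455 in DMSO and 55, 44 and 53.9 in AZD5153 at 24 h, and at 981, 917 and 1170.4 and 35.6, 43.5 and 41.9 at 48 h, and only the DMSO arm passed (0.97). Over the list, the DMSO level rose from 24 to 48 h in 15 genes and fell in 4 (42.9% and 11.4%, against 16.4% and 19.3% of all genes). The AZD5153 level rose in 4 and fell in 7 (11.4% and 20%, against 15.8% and 13.8%). RSAD2 was at 5.36, 4.10 and 1.22 in AZD5153 at 24 h and 3.65, 0 and 4.28 at 48 h against 134, 118 and 111 and 431, 387 and 443 in DMSO. It is 1 of the 4 genes tested through their DMSO level alone, and its call (limma adjusted p = 0.031) was lost under 9 of the 24 alternatives. Of 16 genes of MHC class I presentation, 5 were lower and 1 higher (31.2% and 6.25%, against 10.1% and 14.4% of all genes), with a median difference of -0.42. In 1 of the 16 the AZD5153 libraries averaged under 10 normalized counts. Over the other 15, 5 were lower and 1 higher (33.3% and 6.67%). PSMB8, a subunit of the immunoproteasome, went from -2.04 to -2.80, and HLA-E went from 0.40, past the threshold, to -0.12, which was not (limma adjusted p = 0.31).

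Of 23 NF-kB genes, 5 were lower (21.7%, against 10.1% of all genes) and 1 higher (4.35%, against 14.4%), with a median difference of -0.06 whose sign flipped under 4 of the settings given for the lists. The median of all genes was itself 0.073 with libraries scaled to 7 stable genes and 0.063 with the GC trend removed. In 3 of the 23 the AZD5153 libraries averaged under 10 normalized counts, so that they were tested through their DMSO level alone. Over the other 20, 5 were lower and 1 higher (25% and 5%). LIF, a cytokine of the interleukin-6 family, was at 299.8, 347 and 423 in DMSO and 60.3, 60.4 and 60.0 in AZD5153 at 24 h, and at 395, 344 and 402 and 5.47, 16.3 and 15.4 at 48 h, a decrease that grew through the treated arm alone (difference -2.43 ± 0.40, limma adjusted p = 4.34e-04). CXCL3, a neutrophil chemokine, was at 50.7, 61.2 and 60.6 in DMSO and 12.1, 5.12 and 4.90 in AZD5153 at 24 h, and at 39.6, 16.8 and 23.8 and 17.3, 13 and 10.3 at 48 h. Its decrease faded (difference 2.03 ± 0.55, limma adjusted p = 0.014) with only the fall in DMSO past the threshold (-1.16). With a pseudocount of 10 the differences of LIF and CXCL3 were -1.79 and 1.37. ICAM1 and CXCL3, both on that list, thus moved in opposite directions.

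Collagens and other matrix proteins changed in both directions, more often lower. Of 38 tested, the effect was lower at 48 h in 15 (39.5%, against 10.1% of all genes) and higher in 6 (15.8%, near the 14.4% of all genes), and the median effect went from -1.11 to -1.76. In 3 of the 38 the AZD5153 libraries averaged under 10 normalized counts, and none of those 3 passed. COL6A3, a chain of the microfibrillar collagen VI (chr2:237324003-237414328), was at 126010, 132510 and 134450 in DMSO and 49432, 49514 and 47668 in AZD5153 at 24 h, and at 135170, 135260 and 135470 and 19462, 18519 and 19436 at 48 h. The change in DMSO was 0.05 and did not pass (limma adjusted p = 0.37), and the AZD5153 level fell by 1.35 on the log2 scale. The decrease grew from -1.42 to -2.82 (difference -1.40 ± 0.055, limma adjusted p = 5.01e-10). COL6A1 and COL6A2, the partner chains, had differences of -1.32 and -1.32, or -0.95 and -0.86 with the GC trend removed. COL5A1, a fibril-forming collagen, was at 86.8, 99.7 and 116 in DMSO and 42.9, 45.1 and 37.9 in AZD5153 at 24 h, and at 89.2, 105 and 113 and 6.38, 4.35 and 0 at 48 h, again with the treated arm alone past the threshold (difference -3.68 ± 0.72, limma adjusted p = 0.0017). At so few treated reads its difference depends on the pseudocount and was -1.99 with one of 10. Over the list, 19 genes fell and 8 rose from 24 to 48 h in AZD5153 (50% and 21.1%, against 13.8% and 15.8% of all genes). In DMSO 9 fell and 10 rose (23.7% and 26.3%, against 19.3% and 16.4%).

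Of 19 genes of the CCN family and YAP targets, 5 were lower and 3 higher (26.3% and 15.8%, against 10.1% and 14.4% of all genes), with 4 increases and 2 decreases that faded. Their median difference was 0.11, and the balance turned to 5 higher and 3 lower with libraries scaled to 7 stable genes and to 7 and 4 with the GC trend removed. Under these settings 70.7% and 68.4% of the called differences of all genes were higher too. CCN2, a matricellular protein (chr6:131948176-131951372), was at 1734, 1664 and 1671 in DMSO and 10938, 10680 and 10554 in AZD5153 at 24 h, and at 846, 902 and 816 and 2579, 2574 and 2646 at 48 h. Both arms fell, and the increase shrank from 2.67 to 1.60 (difference -1.06 ± 0.07, limma adjusted p = 1.18e-07). CCN1 was at 2821, 2964 and 3403 in DMSO and 5658, 5603 and 5034 in AZD5153 at 24 h, and at 1628, 1584 and 1575 and 1617, 1687 and 1709 at 48 h, where the treatments overlapped. ANKRD1, a muscle and YAP-responsive repeat protein, was at 46.2, 45.6 and 33.9 in DMSO and 28.2, 42 and 30.6 in AZD5153 at 24 h, and at 32.4, 30.1 and 32.4 and 1.82, 4.35 and 6.84 at 48 h, a decrease that grew. For TGFB2, a ligand of the TGF-beta family, a decrease of -1.89 faded to -0.74.

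Metabolic lists held members of both directions. Of 26 glycolysis genes, 12 were higher and 4 lower at 48 h (46.2% and 15.4%, against 14.4% and 10.1% of all genes), and the median effect went from 0.14 to 0.34. By quantile normalization 7 were higher and 5 lower. SLC2A1 and SLC2A3, both glucose transporters, moved in opposite directions: SLC2A1 was at 1208, 1533 and 1581 in DMSO and 1126, 1184 and 1127 in AZD5153 at 24 h, and at 1403, 1356 and 1323 and 1879, 1809 and 1906 at 48 h, a reversal (difference 0.77 ± 0.12, limma adjusted p = 1.95e-04). SLC2A3 was at 2202, 2494 and 2388 in DMSO and 1399.8, 1371 and 1448 in AZD5153 at 24 h, and at 3694, 3412 and 3664 and 855, 849.7 and 917 at 48 h, a decrease that grew (difference -1.29 ± 0.085, limma adjusted p = 1.17e-07). HK2, a hexokinase that starts glycolysis, reversed from -0.24 to 0.52. Of 19 genes of the hypoxia response, 7 were lower and 2 higher (36.8% and 10.5%, against 10.1% and 14.4% of all genes). In 1 of the 19 the DMSO libraries averaged under 10 normalized counts, so that it was tested through its AZD5153 level alone. Over the other 18, 6 were lower and 2 higher (33.3% and 11.1%). ADM, which encodes the vasodilator adrenomedullin, was at 724, 806 and 918 in DMSO and 4929, 5201 and 4607 in AZD5153 at 24 h, and at 1006, 1017 and 1011 and 2736, 2711 and 2801 at 48 h, an increase that faded (-1.15 ± 0.10, limma adjusted p = 1.90e-06), while the decrease of LOX, an enzyme that cross-links collagen, grew from -2.44 to -3.57. Of 25 genes of cholesterol synthesis, 7 were higher and 2 lower (28% and 8%, against 14.4% and 10.1% of all genes), or 5 and 4 by quantile normalization. The counts were 10 and 1 with libraries scaled to 7 stable genes and 11 and 0 with the GC trend removed. ACAT2, a thiolase at the start of that pathway, faded from -1.84 to -1.13 and overlaps TCP1 on the other strand (difference 0.55), and INSIG1, which retains the sterol sensor SCAP, reversed from -0.21 to 0.28, with -0.14 at 24 h without replicate 1 of DMSO_24h.

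Replication-dependent histone genes, whose transcripts normally lack a poly(A) tail, were tested in 30 of 60 cases. Of these, 10 averaged under 10 normalized counts in the DMSO libraries and passed the filter on low values through their level in AZD5153, so the filter fixed that those 10 were higher with AZD5153. Over the other 20, the difference between times passed as lower in 3 and as higher in 2 (15% and 10%, against 10.1% and 14.4% of all genes). H3C6 was at 11.3, 19.9 and 14.3 in DMSO and 142, 143 and 137 in AZD5153 at 24 h, and at 45, 50.5 and 43.2 and 129, 90.2 and 95.8 at 48 h, and its increase faded from 3.17 to 1.15 with only the DMSO arm past the threshold (1.58). H1-3 and H1-4 are among the 10 that passed the filter through their level in AZD5153, so their differences are only described. H1-3 was at 5.64, 0.712 and 0 in DMSO and 37.5, 51.2 and 26.9 in AZD5153 at 24 h, and at 9.91, 11.5 and 6.48 and 24.6, 18.5 and 26.5 at 48 h, and its call (limma adjusted p = 0.018) was lost without replicate 2 of AZD5153_24h. The calls of H1-4 and H2BC18 (-1.43 and -1.15) were lost under 10 of 23 and 14 of 24 alternatives, and that of H1-4 was among them without replicate 1 of DMSO_24h. The difference of H2BC18 was then -0.73. H2BC18 overlaps FCGR1A, whose difference of -1.78 was -0.42 and not past the threshold with a pseudocount of 10. Histone genes share near-identical sequence, so reads may be split between them. Besides H3C6, the H3 genes H3C10, H3C13, H3C8 and H3C12 had differences of 0.05, -0.10, 0.35 and -0.71, none of them past the threshold.

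Autophagy and lysosome genes were higher in 8 and lower in 6 of 52, shares (15.4% and 11.5%) near the 14.4% and 10.1% of all genes, and by quantile normalization in 5 and 8. The counts were 13 and 9 without replicate 1 of DMSO_24h. They were 12 and 3 with libraries scaled to 7 stable genes and 14 and 7 with the GC trend removed. SQSTM1, the autophagy receptor p62 (chr5:179806398-179838078), was at 10578, 13187 and 14242 in DMSO and 83974, 84488 and 75631 in AZD5153 at 24 h, and at 19887, 19614 and 18199 and 47070, 46019 and 47147 at 48 h. The increase shrank from 2.69 to 1.28 as DMSO rose (0.61) and AZD5153 fell (-0.80), with a difference of -1.41 ± 0.11 (limma adjusted p = 8.26e-07). MRNIP, which overlaps it on the other strand, had a difference of -1.49. GABARAPL1, an ATG8 protein of the autophagosome membrane, was at 410.3, 416 and 446 in DMSO and 1404, 1352 and 1343 in AZD5153 at 24 h, and at 838, 776 and 852 and 1546, 1521 and 1396 at 48 h. Its increase faded through the vehicle cells alone (0.95, against 0.12 in AZD5153). The protease ATG4A and the proton pump subunit ATP6V0D1 moved the other way, with differences of 0.52 and 0.50. MAP1LC3B had a difference of 0.23 whose call was lost under 12 of the 24 alternatives, at 0.13 by quantile normalization. Of 77 cytosolic ribosomal protein genes, 12 were higher and 0 lower, or 17 and 4 without replicate 1 of DMSO_24h and 25 and 2 with the GC trend removed. By quantile normalization the balance turned, with 2 higher and 7 lower. Of 56 oxidative phosphorylation genes, 9 were higher and 1 lower. The shares of higher members were 15.6% and 16.1%, against 14.4% of all genes tested, and those of lower members 0% and 1.79%, against 10.1%. For the autophagy and ribosomal lists the median difference (0.03 and 0.01) was -0.03 and -0.10 by quantile normalization. It also turned negative with libraries scaled to equal totals, but there the median of all genes moved alike, from 0.0016 to -0.047.

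Of 20 genes listed for BET proteins, P-TEFb and their partners, 2 were higher and 3 lower at 48 h. The list also holds SERPINI1, a marker and not a BET protein or partner, which was 1 of the 3 lower. Of the 20 genes, 15 did not pass, where 24.5% of all genes passed in either direction. The counts of higher and lower members were 4 and 4 without replicate 1 of DMSO_24h and 5 and 4 with the GC trend removed. They were 1 and 5 by quantile normalization and 0 and 3 with libraries scaled to equal totals. SERPINI1, a protease inhibitor used as a marker of BET inhibition (chr3:167735243-167825569), was at 128, 136 and 126 in DMSO and 1066, 1078 and 1089 in AZD5153 at 24 h, and at 297, 262 and 257 and 936, 974 and 919.8 at 48 h. The change in treated cells did not pass (-0.19, limma adjusted p = 0.085) while the vehicle level rose (1.06), so the increase faded from 3.04 to 1.79 (difference -1.25 ± 0.11, limma adjusted p = 2.13e-06). ELL2, a subunit of the super elongation complex, faded from 1.46 to 0.95. The calls of AFF4 (-0.30) and MLLT3 (0.41) were lost under 8 and 7 of the 24 alternatives.

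Of the 13 glial and glioma markers tested, 3 were higher and 4 lower at 48 h (23.1% and 30.8%, against 14.4% and 10.1% of all genes), or 4 and 2 with the GC trend removed. In 1 of the 13 the DMSO libraries averaged under 10 normalized counts, and in 1 the AZD5153 libraries did. Over the other 11, 3 were higher and 4 lower (27.3% and 36.4%). CHI3L1, a secreted glycoprotein of mesenchymal glioma cells (chr1:203178931-203186704), was at 1865, 1943 and 1870.4 in DMSO and 772, 816 and 774 in AZD5153 at 24 h, and at 7037, 7063 and 6950.3 and 489.6, 481 and 439 at 48 h. The vehicle level rose most (1.89) and the decrease grew from -1.26 to -3.90 (difference -2.63 ± 0.08, limma adjusted p = 1.86e-11). SOX9, a transcription factor of glial progenitors, was at 1234, 1356 and 1364 in DMSO and 485, 569 and 496 in AZD5153 at 24 h, and at 1027, 1025 and 932 and 1083, 1092 and 1146 at 48 h. Its decrease of -1.35 had no counterpart past the threshold at 48 h (0.16, limma adjusted p = 0.078), although the 48 h effect passed without replicate 1 of DMSO_24h, and treated cells rose (1.10). Of the 8 markers of other cell types tested, 3 were lower at 48 h (FCGR1A, PECAM1 and MBP; 37.5%, against 10.1% of all genes) and 0 higher (against 14.4%). FCGR1A averaged under 10 normalized counts over the DMSO libraries and was tested through its AZD5153 level alone, and its call was lost with a pseudocount of 10. Their summed level overlapped between treatments at each time, but members went opposite ways with AZD5153 at 24 h: FCGR1A averaged 1.82 in DMSO and 299 in AZD5153, and PECAM1 289 and 43.3.

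**Figure D5:**
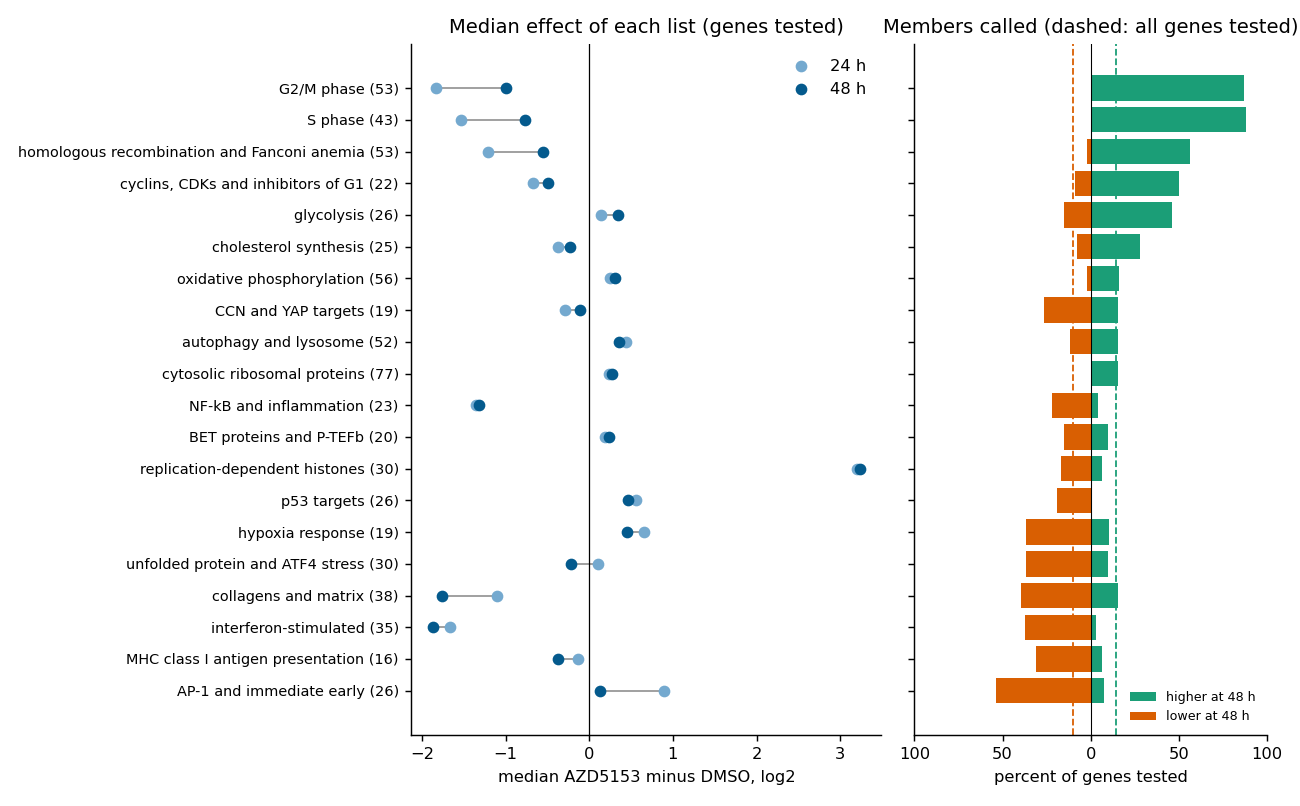
Left, the median AZD5153 effect (log2, AZD5153 minus DMSO) of 20 gene lists at 24 h (light) and 48 h (dark), with the number of genes tested in brackets and a line at 0. Right, the percent of each list's tested genes whose effect was higher (green) or lower (orange) at 48 h, with dashed lines at 14.4% and 10.1% for all genes; S phase and G2/M genes reach 88.4% and 86.8% higher.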

How the data were processed

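RNA-Seq was measured in 12 libraries of SF8628 cells. Reads were aligned by the authors with STAR to hg38, counted per gene with HTSeq-count and normalized with DESeq2. Versions, the annotation used for counting and the strand setting are not given in the sources used here. The deposited values are a signal, gene counts divided by 1 size factor per library, and all values came out as whole reads (tolerance 0.001). The log2 fold change, standard error, score and p-value columns that the authors deposited hold their own comparison and were not used. The difference between times was tested with limma 3.58.1 in R 4.3.3 (lmFit, eBayes with trend, 8 residual degrees of freedom) on log2(normalized count + 1) over all 4 groups. Genes with a mean of at least 10 entered, and p-values were adjusted by Benjamini-Hochberg. On a log2(value + 1) scale the changes of low genes are understated. Recovered reads were also tested with edgeR 4.0.16 and DESeq2 1.42.0. The limma, edgeR and DESeq2 fits, with the classes and arms read from them, were run on simulated counts whose changes lay in AZD5153_48h alone. Other steps, such as removal of the GC trend and the motif search, were not simulated.

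Genes were named by rule: in each class the 4 largest differences with a mean of at least 100 and no overlap between treatments at a called time, up to 4 of the largest called members of each list, and list members that the study names. Members and lists were chosen with earlier results of these data known. Promoters came from RefSeq (84 of 110 named genes matched). The alternatives were other pseudocounts, minimum means, scalings and tests, a replicate block and leaving out each library. Removal of the GC trend was added after the data were seen. Some results are not reported here.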

Additional observations from a re-analysis of the deposited data

Results flagged for a closer look

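The effect of AZD5153 differed between 24 and 48 h by the limma test of that difference in 2254 genes, where it was higher at 48 h, and in 1575 genes, where it was lower. Of the genes named by class, those that turned from higher to lower had differences of -2.10 (ADAMTS7), -2.03 (FSTL3), -1.68 (SLC20A1-DT) and -1.51 (MIR222HG). Those that turned from lower to higher had 1.42 (MOK), 1.37 (RRM2), 1.35 (ABCG2) and 1.30 (FANCM). Faded increases had -2.85 (IFITM10), -2.32 (SLC34A3), -2.30 (LUCAT1) and -1.99 (VASN), and faded decreases 2.08 (E2F8), 1.80 (MTFR2), 1.76 (FAM72C) and 1.52 (TNFSF15). Increases that grew had 1.92 (DNER), 1.87 (VSIR), 1.74 (FTLP3) and 1.54 (IQGAP2), and decreases that grew -4.94 (LCNL1), -3.46 (NPR1), -3.24 (HSPB7) and -3.17 (ICAM1). These genes were picked for the size of the difference, so the values describe the extremes of each class.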

How the results depend on the processing

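Of the 24 genes named by class, 22 kept their call under all 24 alternatives that refit genes. Of 107 called named genes, 84 kept theirs under those run, 9 of the 107 with a mean under 100 having 1 alternative fewer; VASN lost its call under 10 and FTLP3 under 1, moderation without a trend. Leaving out 1 library gave 1794 to 2724 higher and 1213 to 1977 lower genes, 190 to 332 reversed, 1394 to 2169 faded and 1415 to 2189 grown, with 4442 to 6012 genes changed in DMSO and 3673 to 6100 in AZD5153. With differences of at least 1 there were 196 higher, 558 lower, 60 reversed, 309 faded and 380 grown. With the GC trend removed 3495 genes were higher, COL6A2 and JUNB had a change in DMSO of -0.14 and -0.055, and NDUFS8 an effect at 48 h of 0.048. By quantile normalization RPS4X had an effect at 24 h of -0.12. In these 4 the sign turned, and the cause was not tested. The share of higher calls was 52.9% with edgeR, 57.3% with DESeq2 and 52.4% by quantiles. A replicate block left 2012 higher and 1426 lower genes. Same-numbered libraries did not deviate together (correlations from -0.15 to 0.04 over 18 pairs). The labels do not say whether equal numbers shared a culture or batch, and these correlations of deviations from group means cannot settle it. Genes with few reads in treated cells, such as NPR1 and RSAD2, are limited by depth.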
